A study of Homo sapiens with 6 samples.

Results

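The genes described are 10 actin-binding genes of KM12, an established human colorectal cancer cell line: the drebrin gene DBN1, the tropomyosin genes TPM1, TPM2 and TPM4, the moesin gene MSN, the radixin gene RDX, the caldesmon gene CALD1, the calponin genes CNN2 and CNN3, and the transgelin gene TAGLN2. They were given by name, and each name matched 1 row of the 27134 genes in the deposited table. They were chosen with the comparison of the groups already known: the authors' deposited table is ordered by p-value, and DBN1, TPM2 and MSN are its rows 1, 4 and 5. The differences of the 10 genes between the groups are therefore given as a description, and no test of them is used as support. Of the 6 libraries, 3 came from KM12 cells labelled as overexpressing CDO1 and 3 from KM12 cells labelled as mock controls, with both groups at passages 10 to 15. CDO1 is the gene of a cysteine dioxygenase, an enzyme that turns cysteine into its sulfinic acid. How the gene was introduced, whether the cells were a single clone and whether replicates were grown as separate cultures is not stated in the labels, so p-values measure only how far these libraries differ from each other, and that may be technical.

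Actin filaments are decorated along their sides by proteins that set which other factors can reach them. Tropomyosins are coiled-coil dimers that lie end to end along the filament and gate the access of myosin and of severing proteins. Caldesmon and the calponins bind the same filaments and restrain myosin, drebrin binds the filament side and couples it to microtubule tips, and the transgelins are small relatives of the calponins. Ezrin, radixin and moesin, the ERM proteins, tie filaments to the plasma membrane, and ezrin is known as the main ERM protein of intestinal epithelium, while moesin is typical of leukocytes, endothelium and mesenchymal cells.

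In cells with CDO1, 4 of the 10 genes were much lower than in mock cells: DBN1 was 3.14-fold lower, TPM2 2.78-fold, MSN 2.68-fold and CALD1 2.49-fold. TPM1 was 2.02-fold higher. The other 5 genes lay close to the mock level, with TPM4 1.19-fold, CNN2 1.13-fold, CNN3 1.08-fold, TAGLN2 1.07-fold and RDX 1.00-fold of it. Within the tropomyosins TPM1 and TPM2 thus went in opposite directions, and within the ERM proteins MSN was lower while RDX was at the same level.

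Reads assigned to genes totalled 17516640 to 22198173 per library. Counts of 2 libraries of a group never agreed within sampling noise (chi-square divided by degrees of freedom, 2.19 to 9.08), and all 6 libraries were kept as separate samples. CDO1 had 2519, 2134 and 2540 reads in the CDO1 libraries, against 76, 0 and 0 reads in mock replicates 1, 2 and 3, so mock replicate 1 alone of the mock libraries held CDO1 reads. Without that library the log2 fold change of DBN1 was -1.65, of TPM2 -1.49, of MSN -1.41, of CALD1 -1.29 and of TPM1 1.02. In bulk RNA a lower level per cell and fewer cells at the same level cannot be told apart.

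**Figure D1:**
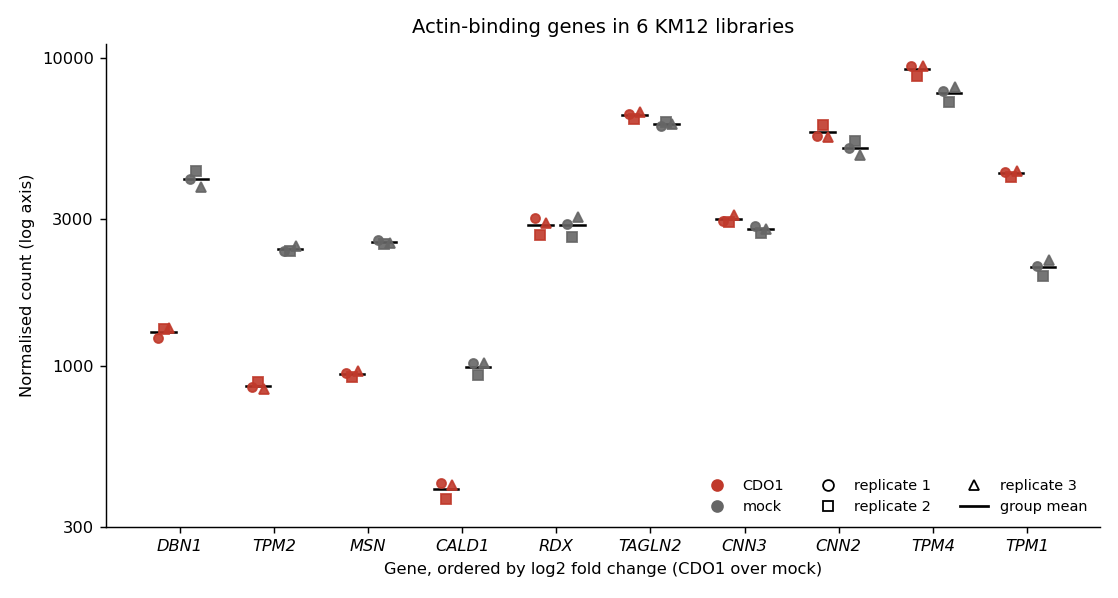
Normalised count (counts divided by a size factor, log axis) of the 10 genes in the CDO1 libraries (red) and the mock libraries (grey), with 1 shape per replicate and short lines for the group means. DBN1, TPM2, MSN and CALD1 lie wholly below the mock libraries, TPM1 lies wholly above them, and only RDX shows overlapping groups.

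All 10 genes passed the filter of a mean of 1 normalised count, and the fewest reads of any of them in any library were 338. In the fit over all genes (limma, Benjamini-Hochberg adjusted p of 0.05) 7 of the 10 were past the threshold, 3 higher and 4 lower, where 24.0% of the 21775 genes tested were past it in either direction, 11.3% higher and 12.7% lower. Where the mean reached 100, as it did for all 10, the share was 36.3%, and edgeR's quasi-likelihood test on the recovered reads put 35.7% of the genes it kept past the same threshold. The groups did not overlap in 9 of the 10, beside 37.1% of all genes tested and 49.9% of those whose mean reached 100. Because the genes were chosen on this contrast, nothing is read from these counts.

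The stretches in front of the start sites are shown because genes of the same families moved apart. Those of DBN1, TPM2, MSN and TPM1 are the nearest upstream sequence, while those of TPM4 and CNN2 were cut around a CArG box. GC boxes are marked only in the first 4, so the marks are no contrast between lower and higher genes. The lower gene CALD1 is not shown. They are RefSeq sequences of build GRCh38.p14, 5′ to 3′ on the strand of the gene, placed by the first start listed for it. Capitals mark the GC box, GGGCGG or its reverse complement CCGCCC, in the first 4, and the CArG box, the binding motif of serum response factor, in the last 2. The first 4 run from 150 bases to 1 base before the start, that of TPM4 from 198 to 139 bases and that of CNN2 from 114 to 55 bases before it.
DBN1, chr5:177473635-177473784, minus strand: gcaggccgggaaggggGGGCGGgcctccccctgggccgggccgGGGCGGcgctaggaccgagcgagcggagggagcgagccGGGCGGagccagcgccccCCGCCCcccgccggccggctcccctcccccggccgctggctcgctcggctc
TPM2, chr9:35690057-35690206, minus strand: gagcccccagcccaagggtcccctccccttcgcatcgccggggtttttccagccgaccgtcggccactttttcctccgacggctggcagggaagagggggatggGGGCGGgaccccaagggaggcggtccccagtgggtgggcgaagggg
MSN, chrX:65588227-65588376, plus strand: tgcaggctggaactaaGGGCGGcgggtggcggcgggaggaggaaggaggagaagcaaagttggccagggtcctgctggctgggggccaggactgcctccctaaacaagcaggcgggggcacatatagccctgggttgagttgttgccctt
TPM1, chr15:63048339-63048488, plus strand: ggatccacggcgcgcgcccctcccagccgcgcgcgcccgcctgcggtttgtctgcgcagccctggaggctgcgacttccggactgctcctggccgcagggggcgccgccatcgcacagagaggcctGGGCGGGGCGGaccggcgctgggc
TPM4, chr19:16067340-16067399, plus strand: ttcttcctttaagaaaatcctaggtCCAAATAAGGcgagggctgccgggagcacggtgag
CNN2, chr19:1026494-1026553, plus strand: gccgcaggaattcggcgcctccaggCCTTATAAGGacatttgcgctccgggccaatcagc

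In windows of 300 bases, 250 before and 50 after the first listed start, 10 of the 10 genes held a GC box on either strand, as did 44.6% of 27305 such windows over all genes in the table of promoters. A CArG box was found in the windows of TPM4 and CNN2, and in 1.29% of all windows. An AP-1 motif (TGANTCA) was found only in TAGLN2 among the 10 and in 7.76% of windows, and a TEAD motif (GGAATG or CATTCC) only in CALD1 and in 14.0% of windows. A TATA motif (TATAAA or TTTATA) was found in none of the 10 and in 3264 of the 27305 windows. The GC content of the windows ran from 52.7% for CALD1 to 81.3% for DBN1, with a median of 58.3% over all windows. The 2 overlapping GC boxes of TPM1 share bases and count as 2 matches. A match says only that these letters are in the window. Of the 10 genes, 7 have more than 1 start in that table, and the gene-level values do not show which start was used.

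DBN1 (ENSG00000113758, GRCh38 chromosome 5, 177456608 to 177474401, minus strand) encodes drebrin, which is best known from neurons but is also found at cell junctions of epithelia. Its normalised count was 1237, 1318 and 1328 in CDO1 replicates 1, 2 and 3, against 4053, 4296 and 3827 in mock replicates 1, 2 and 3. Every CDO1 library lay below every mock library, and the nearest libraries of the groups were 2499 normalised counts apart. The means were 1294 ± 50.2 with CDO1 and 4059 ± 235 in mock (SD, n = 3 each), a log2 fold change of -1.65 ± 0.06 (SE). Without mock replicate 1 it was also -1.65. The related gene DBNL, drebrin-like, differed by 0.10 ± 0.06 (SE) on the log2 scale and did not pass the threshold in limma (adjusted p = 0.278). None of the 50-base stretches of DBN1 transcripts occurs in a transcript of another gene in GENCODE release 29.

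TPM2 (ENSG00000198467, chromosome 9, 35681992 to 35690121, minus strand), the beta-tropomyosin gene, had 854, 887 and 840.4 normalised counts in the CDO1 libraries, against 2357, 2369.95 and 2458 in the mock libraries. Its values varied little within groups, with a coefficient of variation of 2.77% with CDO1 and 2.30% in mock. The groups stood 1470.2 normalised counts apart, and the log2 fold change was -1.48 ± 0.06 (SE).

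TPM1 (ENSG00000140416, chromosome 15, 63042632 to 63071915, plus strand), the alpha-tropomyosin gene, had 4268, 4103 and 4315 normalised counts in the CDO1 libraries, against 2107, 1962 and 2216 in the mock libraries. All CDO1 libraries were above all mock libraries, by at least 1887 normalised counts. The log2 fold change was 1.01 ± 0.06 (SE), and it ran from 0.96 with each library's GC trend removed to 1.06 over the alternatives tried. TPM1 has 34 annotated transcripts, the most of the 10 genes, and the deposited values do not tell them apart. Of its 50-base stretches 19.96% occur in transcripts of other genes, the largest share of the 10, and TPM1-AS and AC079328.2 overlap its exons on the opposite strand. TPM1-AS stood at 8.07 to 20.7 normalised counts over the 6 libraries, but the strand setting of the counting is not known, so reads of TPM1 and of these genes cannot be told apart.

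TPM4 (ENSG00000167460, chromosome 19, 16067021 to 16103005, plus strand) encodes a short tropomyosin of non-muscle cells and was the most abundant of the 10 by normalised count. It had 9419.9, 8748 and 9471 in the CDO1 libraries, against 7860.4, 7236 and 8065 in the mock libraries. The groups did not overlap, though the libraries of replicate 2 were the lowest of both groups. The log2 fold change was 0.26 ± 0.05 (SE). TPM3, the other tropomyosin gene, which is no member of the 10, had 11577 ± 608 normalised counts with CDO1 and 11480.3 ± 622 in mock (SD, n = 3 each; limma adjusted p = 0.907).

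Per kilobase of exon, a scale that rests on the length taken for each gene, shares within the family were set out. TPM2 made up 8.73% ± 0.59 of the summed tropomyosin level with CDO1 and 23.3% ± 0.71 in mock (SD, n = 3 each). TPM1 made up 10.8% ± 0.14 with CDO1 and 5.14% ± 0.08 in mock. TPM2 thus held a smaller share than TPM1 in each CDO1 library and a larger share in each mock library. TPM4 held 35.1% ± 0.39 with CDO1 and 28.3% ± 0.55 in mock, and TPM3 held 45.4% ± 0.70 with CDO1 and 43.3% ± 0.41 in mock. The sum over the 4 genes was 3041 ± 118 normalised counts per kilobase with CDO1 and 3163 ± 145 in mock, so the libraries of the groups overlapped in the sum. With the length of the longest transcript in place of the exon union, TPM2 held 7.33% with CDO1 and 20.6% in mock, and TPM1 14.4% with CDO1 and 7.18% in mock, so the order of the pair was unchanged in each group. TPM3 then held 38.5% with CDO1 and 38.5% in mock, and TPM4 39.8% with CDO1 and 33.7% in mock. The sum was then 7444 ± 288 with CDO1 and 7372 ± 346 in mock, again with overlapping libraries. The order of TPM3 and TPM4 with CDO1 and the direction of the sum thus rest on the length used.

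**Figure D2:**
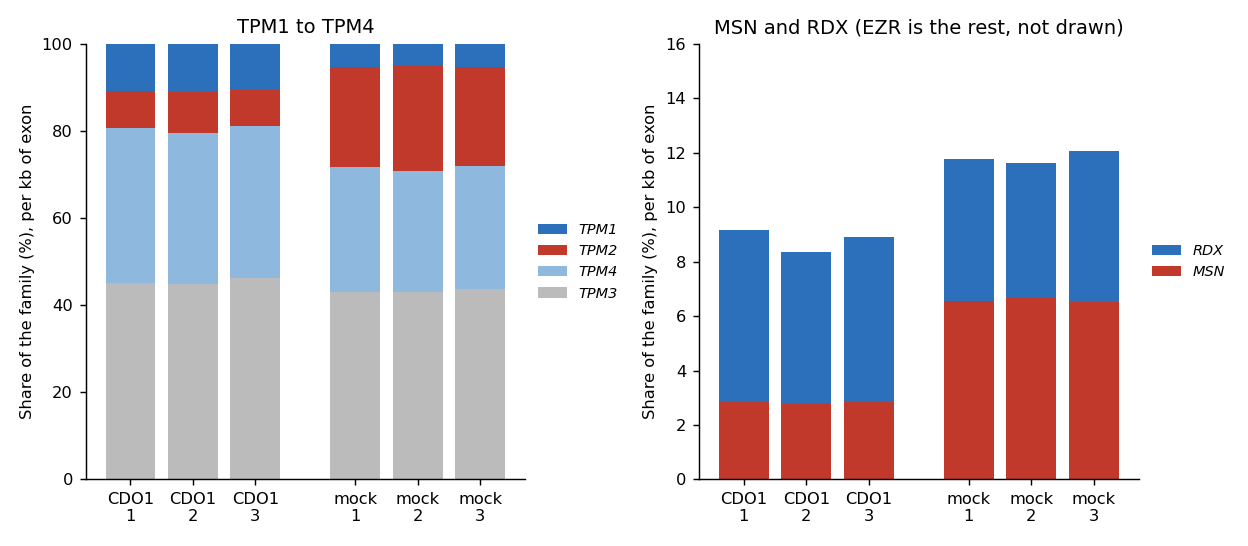
Share of each gene in the normalised counts per kilobase of exon of its family, in percent, for each of the CDO1 libraries (left) and mock libraries (right), with the 4 tropomyosin genes in the first panel and MSN and RDX of the ERM genes in the second, whose axis ends at 16%. TPM2 takes 8.73% on average in CDO1 libraries and 23.3% in mock libraries, and MSN takes 2.82% in CDO1 libraries and 6.59% in mock libraries.

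MSN (ENSG00000147065, chromosome X, 65588377 to 65741931, plus strand), which encodes moesin, had 949.6, 919.6 and 963 normalised counts in the CDO1 libraries, against 2567, 2499.7 and 2514 in the mock libraries. The groups lay 1536 normalised counts apart at their nearest libraries. The log2 fold change was -1.42 ± 0.05 (SE), with -1.45 to -1.40 over the alternatives computed from the deposited values and -1.39 in the authors' deposited table.

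RDX (ENSG00000137710, chromosome 11, 109864295 to 110296722, minus strand), which encodes radixin, had 3032, 2675 and 2919 normalised counts in the CDO1 libraries, against 2904, 2633 and 3054 in the mock libraries. The groups overlapped and the log2 fold change was 0.01 ± 0.06 (SE). Its sign turned in 5 of the 17 alternatives, which ran from -0.05 to 0.06.

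EZR, the ezrin gene, fell slightly, with 17113 ± 70.6 normalised counts with CDO1 and 18923 ± 400 in mock (SD, n = 3 each; log2 fold change -0.14 ± 0.05 (SE), limma adjusted p = 0.0321), and its call ended when no filter was used or when CDO1 replicate 1, CDO1 replicate 2, CDO1 replicate 3 or mock replicate 1 was left out. NF2, which encodes the ERM relative merlin, had a log2 fold change of -0.12 and did not pass (adjusted p = 0.111). Per kilobase of exon EZR held 91.2% ± 0.41 of the ERM level with CDO1 and 88.2% ± 0.24 in mock (SD, n = 3 each). MSN held 2.82% ± 0.05 with CDO1 and 6.59% ± 0.08 in mock, and RDX 6.33%, 5.61% and 6.06% in the CDO1 libraries, against 5.20%, 4.93% and 5.55% in the mock libraries. MSN was thus below RDX per kilobase in each CDO1 library and above it in each mock library. With the length of the longest transcript MSN was below RDX in mock replicate 3 too (8.57% against 9.13%), so the order in mock cells rests on the length used. Of the MSN 50-base stretches, 3.67% occur in other genes, mainly in the pseudogene MSNP1, which was listed at 0 to 1.79 normalised counts. The share was 2.86% for RDX, 5.84% for TAGLN2, 8.51% for CNN2 and 14.5% for TPM4, the last 2 of which also have a gene on the opposite strand over their exons, and it was 0% for TPM2, CALD1 and CNN3.

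CALD1 (ENSG00000122786, chromosome 7, 134744252 to 134970728, plus strand) encodes caldesmon, a brake on myosin that binds actin, tropomyosin and calmodulin. It was the scarcest of the 10, with 417, 370.0 and 411 normalised counts in the CDO1 libraries, against 1019.85, 933 and 1025 in the mock libraries. No CDO1 library reached the level of a mock library. The log2 fold change was -1.31 ± 0.07 (SE), and replicate 2 was the lowest library of each group.

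**Figure D3:**
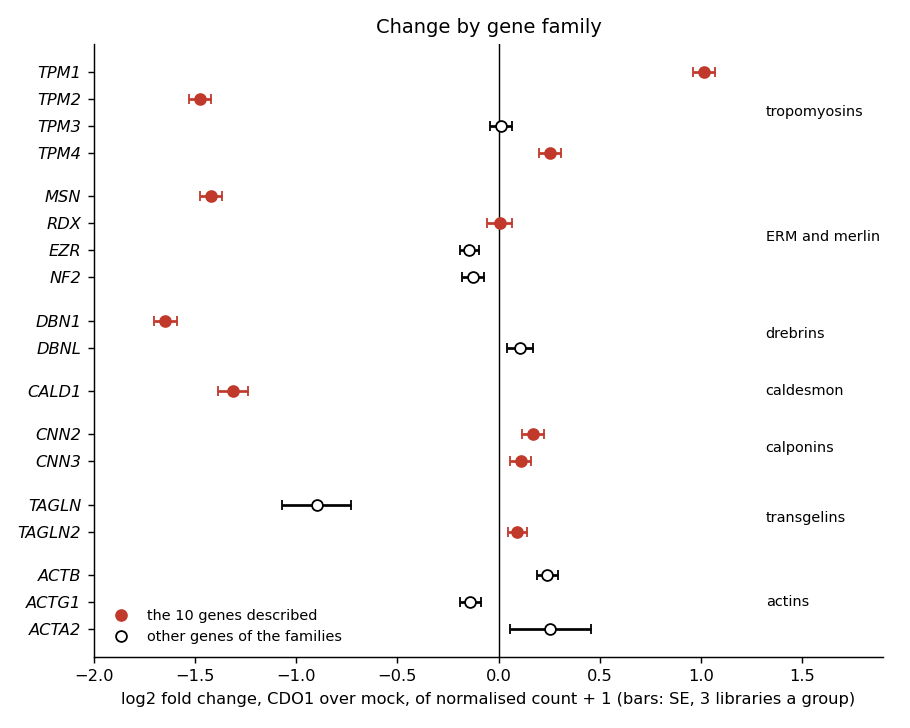
Log2 fold change of normalised count plus 1, CDO1 over mock, with bars of 1 SE from the fit over all genes, for the 10 genes (red) and for TPM3, EZR, NF2, DBNL, TAGLN and 3 actin genes (open); TAGLN3, listed at 0 in the CDO1 libraries, is not drawn. The values drawn run from -1.65 for DBN1 to 1.01 for TPM1, and within the tropomyosins, the ERM genes, the drebrins and the transgelins a gene well below 0 stands beside one near or above 0.

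The calponin genes and TAGLN2 stood close to the mock level. CNN2 (ENSG00000064666, chromosome 19, 1026581 to 1039068, plus strand), the calponin of non-muscle cells, had 5608, 6094 and 5570.2 normalised counts in the CDO1 libraries, against 5116, 5368 and 4858 in the mock libraries. Its log2 fold change was 0.17 ± 0.05 (SE), the nearest libraries of the groups were 202 normalised counts apart, and replicate 2 was the highest library of each group. It was past the threshold, but not with equal library totals (adjusted p = 0.0542), nor in 4 of the 6 fits that left out a library (adjusted p of 0.0512 to 0.129 in limma).

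CNN3 (ENSG00000117519, chromosome 1, 94896949 to 94927278, minus strand), the acidic calponin, had 2953, 2933 and 3105 normalised counts in the CDO1 libraries, against 2844, 2696 and 2795 in the mock libraries. TAGLN2 (ENSG00000158710, chromosome 1, 159918107 to 159925732, minus strand), transgelin-2, had 6585, 6342 and 6696 normalised counts in the CDO1 libraries, against 6049, 6205 and 6138 in the mock libraries. Both genes were higher in every CDO1 library than in every mock library, by 88.5 and 137 normalised counts at the nearest libraries, yet with log2 fold changes of 0.11 ± 0.05 and 0.09 ± 0.05 (SE) neither was past the threshold.

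Of the 6 other genes of these families in the table, none rose, 3 fell (EZR, TAGLN and TAGLN3) and 3 did not pass. Over all genes tested 24.0% were past the threshold, 11.3% higher and 12.7% lower. Among those whose mean reached 100 the share was 36.3%, and nothing is read from a count over 6 genes. TAGLN3 rests on a few reads, with 0 in each CDO1 library and 5.38, 1.95 and 2.26 normalised counts in mock replicates 1, 2 and 3. The smooth muscle transgelin gene TAGLN fell, with 51.0 ± 7.90 normalised counts with CDO1 and 96.1 ± 15.1 in mock (SD, n = 3 each; log2 fold change -0.90 ± 0.17 (SE), limma adjusted p = 0.00047). Per kilobase of exon it held 0.25% of the summed calponin and transgelin level with CDO1 and 0.50% in mock, while TAGLN2 held 49.8% with CDO1 and 50.6% in mock. CNN1, the smooth muscle calponin, is not among the genes of the table.

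Ordered by normalised count per kilobase of exon, the CDO1 libraries ran from TAGLN2 (2630.1 ± 72.8) through CNN2 (1579 ± 80.1), TPM4 (1067 ± 46.7), CNN3 (1056 ± 33.2), RDX (337 ± 21.4), TPM1 (328 ± 8.62), TPM2 (265 ± 7.35), DBN1 (253 ± 9.81) and MSN (158 ± 3.75) to CALD1 (40.6 ± 2.59; SD, n = 3). The libraries of TPM4 and CNN3, of RDX and TPM1, and of TPM2 and DBN1 overlapped. In the mock libraries the order was TAGLN2 (2465 ± 31.4), CNN2 (1403 ± 70.0), CNN3 (979 ± 26.7), TPM4 (894 ± 50.05), DBN1 (793 ± 45.8), TPM2 (737 ± 16.98), MSN (423 ± 5.92), RDX (336 ± 25.0), TPM1 (163 ± 9.89) and CALD1 (101 ± 5.23; SD, n = 3). There the libraries of TPM4 and DBN1 and of DBN1 and TPM2 overlapped. By this length TAGLN2 and CNN2 led and CALD1 was last in both groups, while TPM1 stood above TPM2, DBN1 and MSN with CDO1 and below all of them in mock. Per kilobase of the longest transcript TPM4 stood above CNN2, at 2966 against 2541 with CDO1 and 2486 against 2257 in mock. TPM1 then stood above RDX with CDO1, at 1069 against 639, so parts of the order rest on the length used.

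Within groups the 10 genes spread by a coefficient of variation of 1.27% to 7.45%. In replicate 2 of either group 7 of the 10 genes lay below the mean of their group, and CNN2, whose longest transcript has 56.0% GC, lay above it by 0.08 with CDO1 and 0.07 in mock on the log2 scale. RDX and CALD1, with the lowest GC content (38.6% and 41.6%), lay below it by 0.10 and 0.11 in CDO1 replicate 2 and by 0.12 and 0.09 in mock replicate 2. Over 10926 genes whose mean reached 100, the deviation of a library from the mean over all 6 libraries had a Spearman correlation with GC content of -0.336, 0.0028 and -0.275 in CDO1 replicates 1 to 3, against 0.204, 0.523 and -0.237 in mock replicates 1 to 3. With each library's GC trend removed, DBN1 was at -1.54, TPM2 at -1.47, MSN at -1.45, CALD1 at -1.37 and TPM1 at 0.96, so these 5 differences were about as large without the trend.

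**Figure D4:**
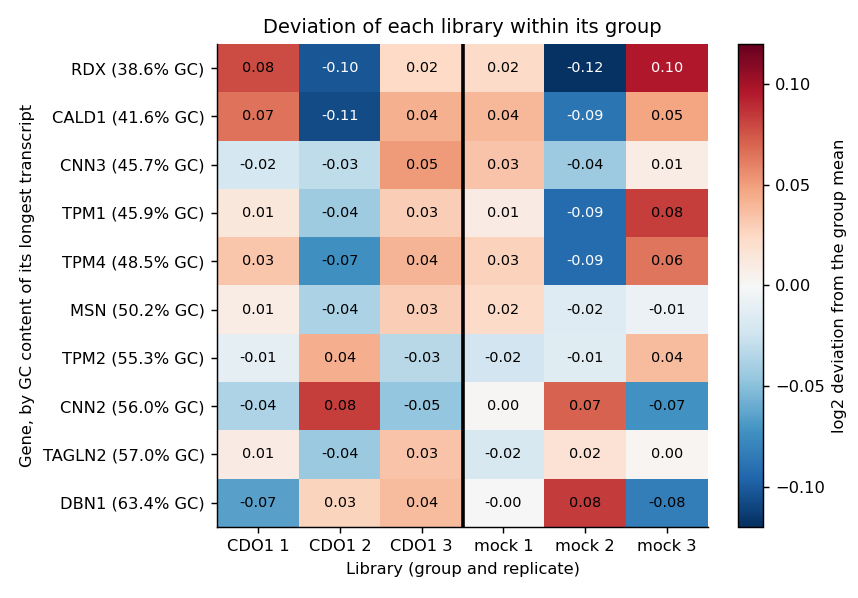
Deviation of each library from the mean of its group, on the log2 scale, for the 10 genes ordered by the GC content of their longest transcript, with CDO1 libraries left of the line and mock libraries right of it. The largest deviation is -0.12, for RDX in mock replicate 2, and the low-GC genes at the top are lowest in replicate 2 of both groups.

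Among the 5 genes, of those whose mean reached 100, whose profile lay nearest to that of DBN1 were MSI1, SYDE1, ARHGAP4 and COL6A1. The measure was the root mean square difference of centred log2 values over the 6 libraries, among 10940 genes, and it was 0.043 for MSI1 and 0.0574 for COL6A1. MSI1 encodes the RNA-binding protein Musashi-1, SYDE1 and ARHGAP4 encode GTPase-activating proteins, and COL6A1 a collagen VI chain. COL6A1 was the most abundant of these 4, at 806 ± 12.2 normalised counts with CDO1 and 2409.7 ± 209.9 in mock (SD, n = 3 each). The longest transcripts of these 4 genes have 59.2% to 65.5% GC and that of DBN1 63.4%. By the same measure TPM2 ranked 51, MSN 82 and CALD1 187. The measure reads the difference between the groups above all, and it says nothing about control or function.

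Genes around the 10 were taken from 11 lists of whole families and complexes of the actin cytoskeleton, with 177 genes, of which 167 are in the table and 165 were tested. In limma 46 of the 165 rose, 29 fell and 90 did not pass, so 45.45% were past the threshold, beside 24.0% of all genes tested (11.3% higher and 12.7% lower) and 36.3% of those whose mean reached 100. The median log2 fold change was 0.04, beside -0.0035 over all genes tested. By list, the share past the threshold ran from 16.67% for the transcriptional regulators to 71.43% for the cross-linkers and bundlers. The actins, myosin II, the ERM partners, the drebrin partners and the regulators were below 36.3%, and the drebrin partners and regulators also below 24.0%. The remaining lists were above 36.3%, with the assembly factors nearest to it at 38.71%. Of the list genes past the threshold 11 had a log2 fold change of -1 or lower, and 2, VIL1 and SCIN, of 1 or higher. Over all genes past the threshold the counts were 985 at -1 or lower and 174 at 1 or higher, so large falls outnumbered large rises across the whole table and not in these lists alone. The 11 were CORO6, ESPN, EVL, FHL1, FLNC, MYL9, PARVB, TAGLN3, TMOD2, WASF3 and WWTR1, singled out after their values were seen. TAGLN3 among them never exceeded 5.38 normalised counts in a library.

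Of 19 genes of myosin II and the control of its light chain, 5 rose, 1 fell and 13 did not pass (median log2 fold change 0.12). Thus 31.58% were past the threshold, beside 36.3% of all genes whose mean reached 100. The gene that fell was MYL9, a regulatory light chain, with 205 ± 16.1 normalised counts with CDO1 and 560.0 ± 0.149 in mock (SD, n = 3 each; 2.73-fold lower, limma adjusted p = 9.65e-11). The light chains MYL12A and MYL6 rose 1.20-fold and 1.19-fold, and the kinase gene ROCK1 1.21-fold. MYH9, MYH10 and MYH14, the heavy chains of non-muscle myosin II, did not pass. Among 4 actin genes ACTB rose 1.18-fold (adjusted p = 0.00153) and ACTG1 had a log2 fold change of -0.14 (adjusted p = 0.0545), and reads may be exchanged between actin genes and their pseudogenes.

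Of 14 tested cross-linkers and bundlers 6 rose, 4 fell and 4 did not pass (median -0.05). Thus 71.43% were past the threshold, beside 24.0% of all genes tested and 36.3% of those whose mean reached 100. FLNC, a filamin gene, fell 2.80-fold, with 485 ± 37.6 normalised counts with CDO1 and 1359 ± 155 in mock (SD, n = 3 each; limma adjusted p = 3.73e-11). ESPN, which bundles actin in microvilli and stereocilia, fell 2.82-fold, and the spectrin gene SPTBN1 rose 1.41-fold. Of 12 filament cap genes 4 rose, 2 fell and 6 did not pass (median 0.11). TMOD2, a tropomodulin that caps tropomyosin-coated filaments at the pointed end, fell 2.45-fold and TMOD1 2.01-fold, while TMOD3, the tropomodulin of most tissues, did not pass and the adducin gene ADD3 rose 1.45-fold. The capping protein gene CAPZA1 rose 1.13-fold with overlapping groups, and lost its call with equal library totals and in 4 of the 6 fits that left out a library.

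Of 22 severing and turnover genes 11 rose, 4 fell and 7 did not pass (median 0.19). Thus 68.18% were past the threshold, beside 24.0% of all genes tested and 36.3% of those whose mean reached 100. VIL1, the villin of microvilli, rose 3.15-fold, VILL, a villin-like gene, 1.88-fold and the coronin gene CORO1A 1.70-fold, and GSN, gelsolin, fell 1.39-fold. Of 31 assembly factors 8 rose, 4 fell and 19 did not pass (median 0.10), and the share past the threshold, 38.71%, was close to that 36.3%. ACTR2 and ARPC2, subunits of the Arp2/3 complex, rose 1.29-fold and 1.22-fold, the monomer-binding TMSB4X 1.41-fold, and EVL, of the Ena/VASP family, fell 3.59-fold. In limma the largest adjusted p among these 8 genes was 0.000272, for ARPC2.

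**Figure D5:**
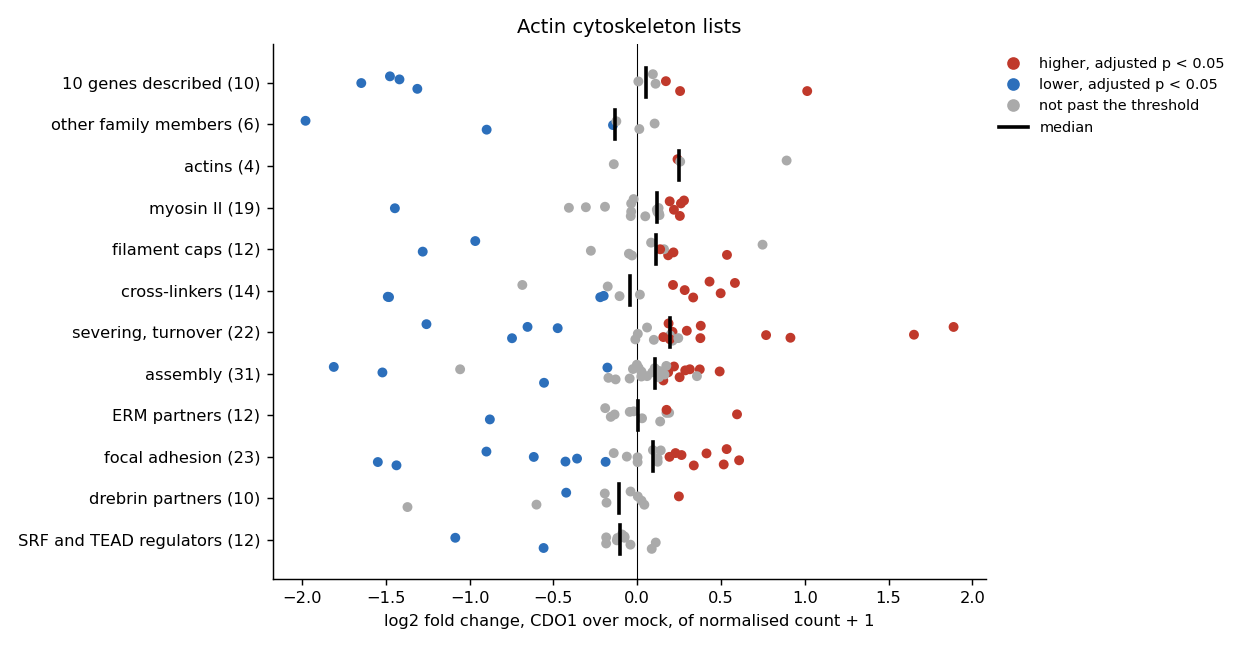
Log2 fold change of normalised count plus 1, CDO1 over mock, of each tested gene in the 11 lists and of the 10 genes described, with the number of genes in parentheses; points past the threshold of 0.05 in limma are red where higher and blue where lower, the rest are grey, and a black bar marks each median. The medians of the lists lie between -0.13 and 0.25, and 11 list genes past the threshold lie at -1 or lower and 2 at 1 or higher, beside 985 and 174 over all genes.

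Of 23 focal adhesion and stress fibre genes 8 rose, 7 fell and 8 did not pass (median 0.09). Thus 65.22% were past the threshold, beside 24.0% of all genes tested and 36.3% of those whose mean reached 100. The tensin genes TNS4 and TNS3 rose 1.52-fold and 1.43-fold and the LIM protein gene PDLIM1 1.45-fold, while PDLIM7 fell 1.54-fold (limma adjusted p = 2.52e-07). Among 12 membrane partners and kinases of the ERM proteins 2 rose, 1 fell and 9 did not pass (median 0.00), a share of 25.0% past the threshold. The one that fell was CD44, the hyaluronan receptor whose tail binds ERM proteins, 1.84-fold lower, with 1969 ± 63.4 normalised counts with CDO1 and 3627 ± 186 in mock (SD, n = 3 each; adjusted p = 2.55e-10). ICAM2, an adhesion molecule, rose by 0.60 on the log2 scale, and PODXL, podocalyxin, rose 1.13-fold, though its call ended without CDO1 replicate 3 (adjusted p = 0.0656 in limma).

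Of 10 drebrin partners AFDN, afadin, rose 1.19-fold, HOMER3, a synaptic scaffold gene, fell 1.35-fold and 8 did not pass, among them MAPRE3, which encodes the microtubule tip protein EB3. Of 12 transcriptional regulators of cytoskeletal genes 2 fell and 10 did not pass (median -0.10). WWTR1, the YAP relative TAZ, fell 2.13-fold (limma adjusted p = 1.24e-08) and ELK3, an ETS cofactor of serum response factor, 1.47-fold. SRF itself, MRTFA and MRTFB did not pass.

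Markers of other cell types were looked up because moesin, caldesmon and TPM2 are also typical of mesenchymal and muscle cells. Of 10 smooth muscle markers 7 are in the table, CNN1, ACTG2 and MYOCD are not, 2 fell (SMTN and TAGLN) and their summed level was 1113 to 1205 normalised counts in CDO1 libraries and 1662 to 1982 in mock libraries. Most of that sum was SMTN, smoothelin, at 1026 ± 39.4 with CDO1 and 1649 ± 154 in mock (SD, n = 3 each). Of 10 fibroblast markers 4 are in the table, without COL1A2, COL3A1, DCN, LUM, THY1 and POSTN, and the sum was 139 to 156 in CDO1 libraries and 204 to 313 in mock libraries, mostly from COL1A1, which fell 2.19-fold. The 8 endothelial markers, of which PECAM1 rose, summed to 211 to 233 normalised counts in CDO1 libraries and 132 to 253 in mock libraries, and 6 of 10 leukocyte markers, without PTPRC, CD3E, CD3D and CD68, to 34.9 to 49.3 in CDO1 libraries and 30.5 to 72.6 in mock libraries. Of 12 epithelial markers, VIL1 among them, 9 rose and 3 did not pass, with a summed level of 193531 to 207659 in CDO1 libraries and 144815 to 153490.0 in mock libraries. Most of that sum was KRT8, at 122713 ± 7075 with CDO1 and 86833 ± 3096 in mock (SD, n = 3 each). The 3 that did not pass were KRT19, at 27302 ± 1340 with CDO1 and 28658 ± 2031 in mock, and the scarce CDX1 and GPA33. Beside these marker counts, 24.0% of all genes tested were past the threshold (11.3% higher and 12.7% lower), and 36.3% of those whose mean reached 100. The part of the marker levels in the differences of the 10 genes was not tested.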

How the data were processed

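RNA of KM12 cells was sequenced in 6 libraries. STAR 2.5.1b, DESeq2 1.10.1 and build GRCh38 are named in the submitters' processing notes. Counter, annotation release and strand setting: not given in the sources used here. As deposited by the authors, the signal values are gene counts per library divided by a size factor, and the log2 fold changes, p-values and adjusted p-values are the authors' deposited comparison, per the file headers. Whole reads were recovered in 100% of values within 0.01 of a read. Libraries held 17516640 to 22198173 reads each. Those of a group differed by more than sampling noise, so precision rests on the spread of 3 libraries a group.

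The test was limma 3.58.1 (trend, R 4.3.3) on log2(normalised count + 1), keeping genes whose mean reached 1, at an adjusted p of 0.05; this scale understates folds of low genes. edgeR 4.0.16 (quasi-likelihood) and DESeq2 1.42.0 ran on the recovered reads, and edgeR called 5423 of 15184 genes. The fits were tested on simulated data. Names came from a reference table (26577 identifiers) and coordinates, GC content and exon union lengths from GENCODE release 29 (26742), whose release may differ from the authors' annotation. Folds are ratios of mean normalised counts.

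The members and lists were chosen with earlier results of these data known. The genes named are CDO1, the 10 members, up to 4 genes per list past the threshold with the smallest p and a mean of 100 or more in the higher group, and the 5 nearest to DBN1, with other list genes free to be named with values; 2 genes that this rule names are not reported here. Alternatives were the filter, the pseudocount, the tool, the authors' deposited comparison, equal library totals, GC trend removal (lowess, span 0.3), the replicate number as a block, protein-coding genes only and each library left out. The transcript length behind the shares was added after seeing the data.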

Additional observations from a re-analysis of the deposited data

How the results depend on the processing

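Over 17 alternatives, the number of genes past the threshold stayed within 1.5 times of 5229 and that of list genes within 1.5 times of 75. Leaving out a library gave 3887 to 5447 genes (1752 to 2584 higher and 2093 to 2863 lower) and 61 to 86 list genes. Of 170 values for the 10 genes, 159 kept direction and side of the threshold. RDX turned to -0.02 with equal library totals and -0.0474 with the GC trend removed, and leaving out a library gave -0.0527 to 0.0576, below 0 without CDO1 replicate 1, CDO1 replicate 3 or mock replicate 2; the cause was not tested. TAGLN2 passed with the GC trend removed (adjusted p = 0.0215 in limma), and CNN2 lost its call 5 times. CDO1 had a log2 fold change of 0.09 in the authors' deposited table, although its normalised counts there averaged 2384 with CDO1 and 22.7 in mock. In limma its log2 fold change was 9.18, and the reason for this gap was not tested. Same-numbered deviations of the groups correlated by 0.0777, 0.299 and 0.0862 over genes for replicates 1, 2 and 3, and differently numbered ones by -0.238 to 0.189. CDO1 replicates 2 and 3 correlated best with the mock library of their own number, and CDO1 replicate 1 with mock replicate 3 (0.189). Whether libraries of the same number share a batch was not tested. With the replicate block 5918 genes and 91 list genes passed. Each of the 10 genes had at least 338 reads in every library, while list genes near 1 normalised count rest on a few reads.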
